A study of Rattus norvegicus with 9 samples.

Results

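Heat shock proteins and chaperones are the genes described here, in the spleens of rats with and without thioacetamide (TAA) treatment. Members were the genes whose symbol begins with Hsp and a family letter or Hsp90, with Dnaja, Dnajb or Dnajc and a digit, or with Cct2 to Cct8, and that had at least 10 counts summed over the 9 libraries. Of 34408 genes in the files, 81 carried such a symbol and 75 reached that count. Of these 75, 7 were set apart as the heat-inducible genes of the cytosol and nucleus (Hspa1b, Hspb1, Hsph1, Hsp90aa1, Dnajb1, Dnaja1 and Dnajb4), and the other 68 were split by compartment or family. The rule itself uses symbols and the minimum count, and no row in the files carries the symbol Hspa1a.

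RNA sequencing covered 9 libraries of wild-type rat spleen, in 3 groups of 3 libraries. TAA+celecoxib rats received TAA and, over the last 8 weeks, celecoxib at 20 mg/kg each day. TAA rats had TAA injected into the peritoneum every 3 days, at a dose of 200 mg/kg over the first 8 weeks, lowered to 100 mg/kg over the last 8 weeks, the regimen that the TAA+celecoxib rats shared. Control rats are labelled only as control. TAA is a liver toxin used to produce fibrosis and cirrhosis in rodents, and celecoxib inhibits cyclooxygenase 2. Strain, age, sex and any vehicle given to the controls are not stated in the labels, and nothing says that each library came from a separate animal, so p-values measure the spread between these libraries, which may be technical.

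Heat shock proteins bind unfolded stretches of other proteins and help them fold, refold or reach the degradation machinery. HSP70 proteins (Hspa genes) work in cycles of ATP hydrolysis that J proteins (Dnaj genes) start and nucleotide exchange factors of the HSP110 family (Hsph1, Hspa4) reset, while HSP90 takes over late folding steps of kinases and steroid receptors and the ring-shaped chaperonin TRiC (Cct genes) folds actin and tubulin. Heat and other damage to proteins free the transcription factor HSF1, which binds heat shock elements in promoters, and separate routes serve the endoplasmic reticulum (ER) and the mitochondria.

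The elements that HSF1 and the ER stress factors bind are runs of short repeats. The promoters below show them in some of the members and in Serpinh1 and Chordc1, which are not members. A heat shock element was searched as the units GAA and TTC in turn with 2 bases of any kind between them, starting with either unit, with 3 units or with 2. An ER stress element was searched as CCAAT, 9 bases of any kind and CCACG. All were sought on both strands, from 250 bases before to 50 bases after the first base of the gene in RefSeq promoters of the rat build GRCr8. Every 3-unit match also holds 2-unit matches. Promoters were found by symbol for 61 of the 75 members, among them 4 of the 7 inducible genes (Hsph1, Hspb1, Dnaja1 and Dnajb1). No promoter was matched for Hspa1b, Hsp90aa1 and Dnajb4. In the following lines capitals mark 3-unit heat shock elements, and overlapping matches run together.

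Hsph1, chr12:10427238-10427367, plus strand: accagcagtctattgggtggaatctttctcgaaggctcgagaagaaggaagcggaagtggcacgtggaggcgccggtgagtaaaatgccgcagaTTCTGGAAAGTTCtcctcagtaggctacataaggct
Dnaja1, chr5:60638404-60638433, plus strand: ggccgggcgGAACTTTCCAGAAcgctcggt
Hspa8, chr8:50080264-50080513, plus strand: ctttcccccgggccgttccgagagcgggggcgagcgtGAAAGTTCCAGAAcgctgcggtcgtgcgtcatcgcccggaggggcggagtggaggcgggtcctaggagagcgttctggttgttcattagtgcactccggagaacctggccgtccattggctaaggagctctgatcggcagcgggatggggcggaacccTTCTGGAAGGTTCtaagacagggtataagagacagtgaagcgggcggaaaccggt
Hspe1, chr9:64084227-64084296, plus strand: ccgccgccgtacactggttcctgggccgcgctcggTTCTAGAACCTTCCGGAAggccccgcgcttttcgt
Serpinh1, chr1:163062977-163063046, minus strand: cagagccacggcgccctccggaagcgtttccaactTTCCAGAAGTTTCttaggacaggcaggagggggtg
Chordc1, chr8:23650826-23650855, plus strand: aaccgGAACGTTCGGGAAGATTCCTGAAgc

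Hspb1 is shown for the 2-unit form, marked in capitals, since its promoter held no 3-unit match.

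Hspb1, chr12:26432382-26432451, minus strand: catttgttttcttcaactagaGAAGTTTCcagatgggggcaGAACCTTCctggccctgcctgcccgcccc

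The 3 ER members with an ER stress element follow, with that element in capitals. In Hsp90b1 one of the matches lies on the opposite strand.

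Hspa5, chr3:38452953-38453011, plus strand: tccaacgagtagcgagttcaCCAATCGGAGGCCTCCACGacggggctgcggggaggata
Hsp90b1, chr7:23012327-23012489, minus strand: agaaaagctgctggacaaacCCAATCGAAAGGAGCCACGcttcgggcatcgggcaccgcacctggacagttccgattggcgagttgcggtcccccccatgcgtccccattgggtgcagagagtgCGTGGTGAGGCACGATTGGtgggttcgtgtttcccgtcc
Dnajc3, chr15:102432514-102432572, plus strand: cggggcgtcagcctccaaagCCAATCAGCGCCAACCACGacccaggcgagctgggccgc

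A 3-unit heat shock element was in 0.798% of all 33469 promoters of the table and in 9.84% of the members' promoters, 6 of 61. These were Hsph1 and Dnaja1, 2 of the 4 inducible promoters, and Hspa8, Hspd1, Hspe1 and Cct4, 4 of 57 among the other members (7.02%). Hspd1 and Hspe1, which encode the mitochondrial chaperonin HSP60 and its lid HSP10, lie head to head, so their promoters share 211 bases (chr9:64084077-64084287) and the same element. The 2-unit form was in 15.9% of all promoters, in 29.5% of the members' promoters and in 4 of 4 inducible ones. The inducible class was chosen as heat shock factor targets, so its share of heat shock elements is not independent of that choice. An ER stress element was in 0.0657% of all promoters and in 3 of 61 member promoters, those of Hspa5, Hsp90b1 and Dnajc3. A match describes the letters of the window and is not a measured binding site.

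Libraries held 14211789 to 19014761 counts, so that 1 count was worth 0.0526 to 0.0704 CPM (counts as a rate of the library total), and the members took 0.818% to 1.26% of the counts. Tests between groups were edgeR's quasi-likelihood fit of all 9 libraries, with p-values adjusted over the 15954 genes that passed its filter on low counts, and 72 of the 75 members passed (not Hspa1l, Hspb9 and Dnajb7). TAA+celecoxib 1 and control 1 stood apart from the rest on the first principal component of all genes, at -60.3 and -63.2, with the other 7 libraries between -1.73 and 50.1. Spleen markers were present throughout, with the summed CPM of 4 B cell genes at 963 to 1825. Hepatocyte genes, 5 in all, summed to 769 CPM in TAA 1 and to 107 CPM in control 1, against at most 0.772 CPM elsewhere. Pancreatic acinar genes, 4 found of 5 listed, summed to 50.75 CPM in TAA 2, against at most 18.5 CPM elsewhere. The part of either tissue in the members' values was not tested. As these are bulk samples, fewer cells of a type and less RNA per cell cannot be told apart.

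The most abundant members were constitutive, as judged on FPKM, the authors' deposited unit that is scaled by gene length. Hsp90ab1, the constitutive cytosolic HSP90, averaged 752 FPKM over the 9 libraries and ranked 104 among all genes. Hspa8, the constitutive cytosolic HSP70, averaged 413 FPKM, and the ER chaperones Hsp90b1 (HSP90 of the ER) and Hspa5 (BiP, the HSP70 of the ER) averaged 314 and 255 FPKM. Cct5 and Cct4, subunits of TRiC, had 226 and 135 FPKM, and Hspe1 and Hspd1 had 218 and 112 FPKM.

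The 7 inducible members ranged over 3.82 to 114 FPKM, with a median of 38.2 FPKM that lay below that of the TRiC class (84.75 FPKM) and above those of the 5 remaining classes (2.96 to 18.4 FPKM). Dnaja1, a cytosolic J protein, averaged 114 FPKM, Dnajb1, the main J protein partner of inducible HSP70, 48.2 FPKM, and Hspb1, the small heat shock protein HSP27, 41.6 FPKM. Hsph1 (HSP110) averaged 38.2 FPKM, the J protein Dnajb4 19.3 FPKM and Hsp90aa1, the inducible cytosolic HSP90, 14.5 FPKM. Hspa1b, the stress-inducible HSP70, was the lowest of the 7 at 3.82 FPKM, and it varied most, with its highest library 51.3 times its lowest on the CPM scale. That ratio was 7.41 for Hsp90aa1 and 1.67 for Dnajb4, the least varied of the 7. Among the 65 other members that passed the filter it was at most 7.59 (Hspa12a), and it was 1.11 for Dnaja2, a constitutive J protein.

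**Figure D1:**
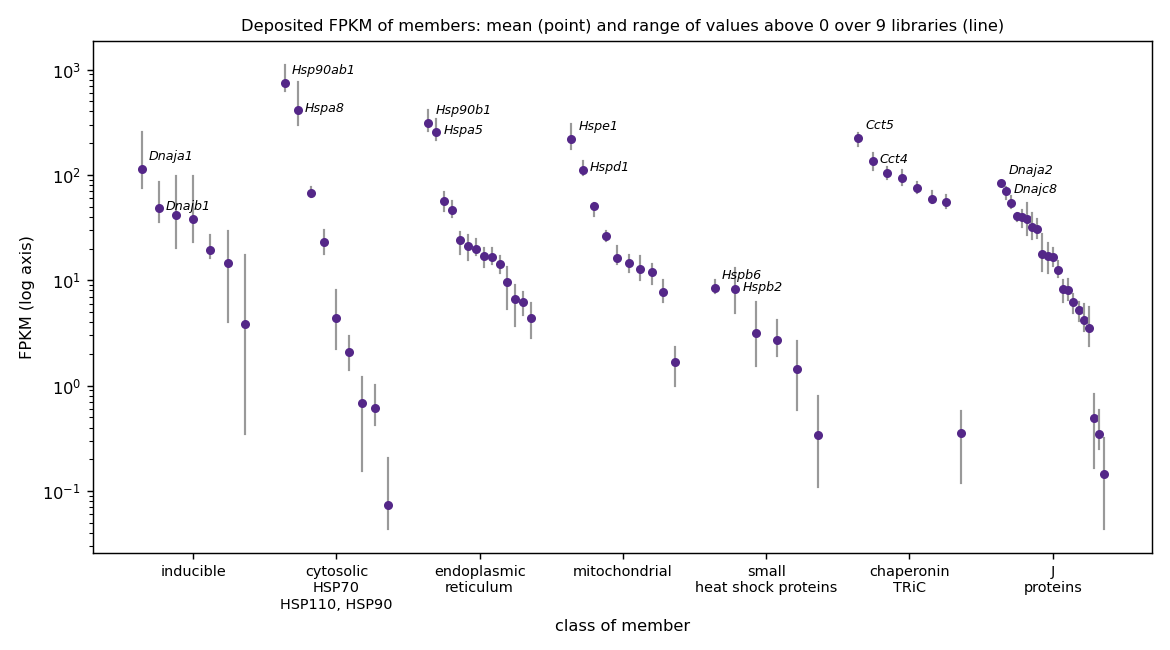
Mean deposited FPKM of each of the 75 members (points, log axis) with the range of its values above 0 over the 9 libraries (lines), by class and with the highest pair of each class named. Hsp90ab1 (752 FPKM) and Hspa8 (413 FPKM) lie at the top, and the small heat shock proteins at or below 8.47 FPKM.

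The inducible genes are described first, in the order HSP70, HSP110, J proteins, small heat shock protein and HSP90. Hspa1b (ENSRNOG00000050647, chromosome 20, 4877324 to 4879779 as the files give it, their build being unresolved) had 2.09, 0.842 and 2.14 CPM in the TAA+celecoxib libraries, 5.40, 4.11 and 7.21 CPM in the TAA libraries, and 2.28, 43.2 and 17.6 CPM in the controls. In counts these were 33, 12 and 38 in TAA+celecoxib, 76, 60 and 138 in TAA, and 37, 777 and 310 in control. Every TAA+celecoxib library lay below every TAA library and every control, whereas the TAA libraries overlapped the controls, as control 1 was below all of them. A second row, described in the files as heat shock 70 kDa protein 1A and outside the symbol rule, had at most 3 counts in the 6 TAA+celecoxib and TAA libraries, against 1, 13 and 20 in the controls, so near-identical copies could share reads.

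Hsph1 (ENSRNOG00000000902) had 107, 104 and 80.7 CPM in TAA+celecoxib, 84.3, 134 and 95.0 CPM in the TAA spleens, and 96.9, 341 and 152 CPM in control. Dnaja1 (ENSRNOG00000007029) had 168, 127 and 130 CPM in TAA+celecoxib, 121, 191 and 122 CPM in the TAA spleens, and 162, 418 and 231 CPM in control. Both genes, each with a 3-unit heat shock element in its promoter, were highest in control 2 and next highest in control 3, with control 1 among the treated libraries.

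Dnajb1 (ENSRNOG00000021824) had 111, 85.9 and 81.1 CPM in TAA+celecoxib, 86.5, 104 and 83.2 CPM in the TAA spleens, and 101, 192 and 136.5 CPM in control. Dnajb4 (ENSRNOG00000013011) varied least of the 7, with 44.2, 39.2 and 43.4 CPM in TAA+celecoxib, 42.4, 41.2 and 48.3 CPM in the TAA spleens, and 43.6, 65.3 and 53.6 CPM in control. The order of control 2, control 3 and then control 1 was the same for both J proteins.

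Hspb1 (ENSRNOG00000023546) had 21.65, 17.6 and 30.9 CPM in TAA+celecoxib, 25.5, 44.4 and 50.1 CPM in the TAA spleens, and 21.0, 86.1 and 34.4 CPM in control. Hsp90aa1 (ENSRNOG00000059714) had 67.7, 44.2 and 20.6 CPM in TAA+celecoxib, 50.9, 22.2 and 11.1 CPM in the TAA spleens, and 50.8, 82.4 and 14.2 CPM in control. For Hsp90aa1 control 3 was the lowest control, unlike in the other inducible genes, and replicate 3 was the lowest library in every group. All 3 groups overlapped for Hspb1 and for Hsp90aa1. Rows described as similar to HSP90 alpha, LOC680491 and LOC103692716, held up to 110 and 55 counts, so the reads of Hsp90aa1 could be split among copies.

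**Figure D2:**
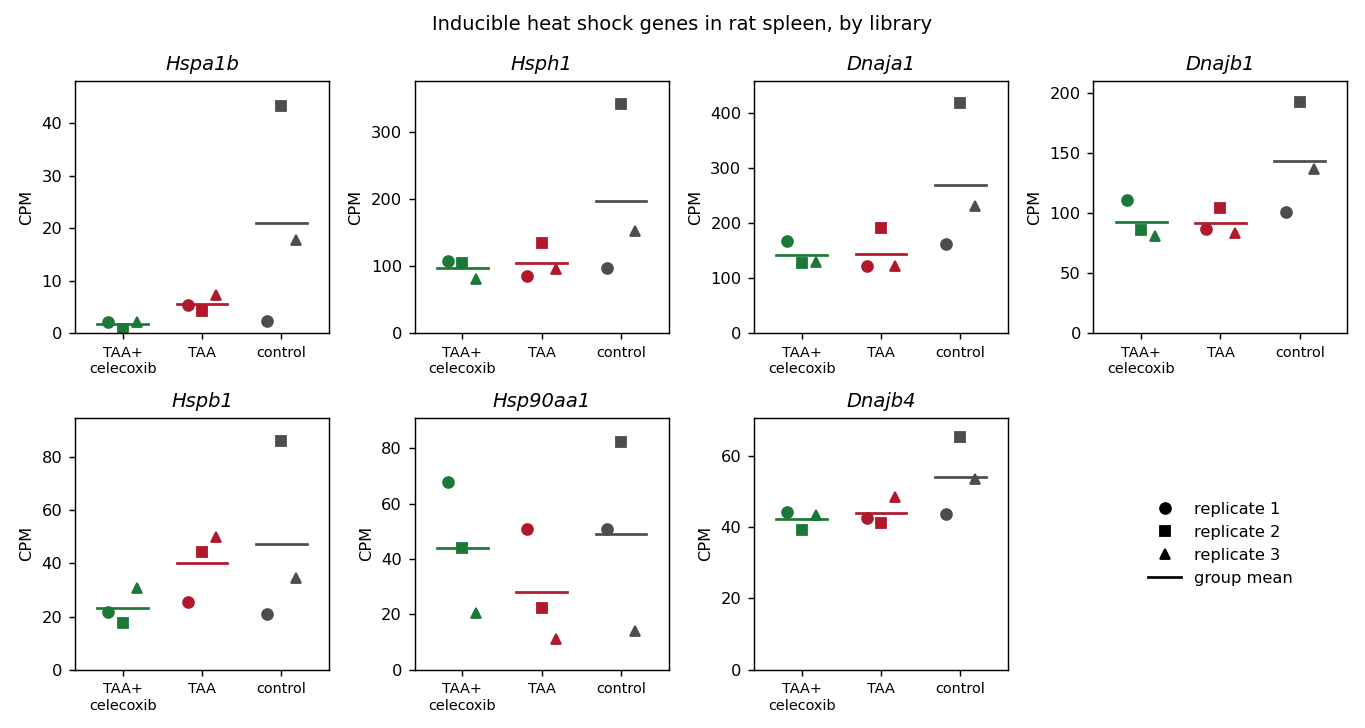
CPM of the 7 inducible genes in each library (points, shaped by replicate number) with the group mean (line), for TAA+celecoxib, TAA and control. Control 2 holds the highest value in all 7 panels, and only Hspa1b has every TAA+celecoxib library below every TAA library.

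Control 2 held the highest of the 9 values for all 7 inducible genes. It held the highest value of 7.1% of all genes tested and of 11 of the 65 other members. The mean centred log2 CPM of the 7 genes was -0.12, -0.56 and -0.47 in TAA+celecoxib, -0.13, -0.02 and -0.20 in TAA, and -0.22, 1.44 and 0.30 in control. That mean over the 65 other members stayed between -0.10 and 0.12 in every library, but smaller classes among them varied more. It ran from -0.53 to 0.42 for the 5 small heat shock proteins tested. For the 8 cytosolic HSP70, HSP110 and HSP90 genes tested it ran from -0.37 to 0.23. For the 7 inducible genes the controls held both the highest values and values as low as the treated ones. Their mean in the 6 treated libraries lay between -0.56 and -0.02.

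The 2 RNA-binding genes of mild cold, Cirbp and Rbm3, were lowest in control 2, at 29.4 and 205 CPM. Rbm3 was next lowest in TAA 3, at 216 CPM. The sum of the 2 genes was 555, 378 and 344 CPM in TAA+celecoxib and 492, 309 and 266 CPM in the TAA spleens. In control it was 558, 234 and 307 CPM, so replicate 1 held the highest sum in each group. Immediate early genes, 8 in all, summed to 297 to 465 CPM in TAA+celecoxib, 351 to 705 CPM in the TAA spleens and 401 to 596 CPM in control. Clock genes, 8 found of 9 listed, summed to 309 to 354 CPM in TAA+celecoxib, 308 to 333 CPM in the TAA spleens and 235 to 255 CPM in control. That sum mixes genes that went both ways. Arntl averaged 32.2 CPM in control, 20.5 CPM in TAA+celecoxib and 20.1 CPM in the TAA spleens. Dbp, Per2, Per3, Nr1d1 and Nr1d2 averaged lower in control than in either other group, and the groups overlapped for Per1 and Ciart. The part of what these lists mark in the inducible values was not tested.

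Members were also set against their constitutive partners within each library, as a percentage of FPKM, which does not depend on library scaling. Hspa1b was 0.1885%, 0.0984% and 0.267% of Hspa8 in TAA+celecoxib, 0.724%, 0.406% and 0.911% in TAA, and 0.246%, 2.27% and 1.66% in control. Hsph1 was 46.2%, 47.1% and 34.05% of its relative Hspa4 in TAA+celecoxib, 36.7%, 50.3% and 41.5% in TAA, and 44.5%, 138.2% and 64.7% in control. Hsph1 exceeded Hspa4 only in control 2 among the 9 libraries. Dnajb1 was 43.95% to 54.7% of Dnaja2 in TAA+celecoxib, 45.6% to 52.7% in TAA, and 55.25%, 103.5% and 70.8% in control.

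Hsp90aa1 did not share that order. It was 2.84%, 2.56% and 1.11% of Hsp90ab1 in TAA+celecoxib, 2.88%, 1.05% and 0.631% in TAA, and 2.6%, 2.66% and 0.649% in control, with all 3 groups overlapping. Hspa5, the HSP70 of the ER, was 48.6%, 64.9% and 66.1% of Hspa8 in TAA+celecoxib, 92.4%, 73.7% and 80.02% in TAA, and 59.4%, 44.5% and 56.7% in control, so every TAA library lay above the other 6.

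The first comparison asked how TAA altered the spleen. All 7 inducible genes had lower fitted values in TAA than in control, with a median log2 fold change of -0.81, against -0.03 for the 65 other members and 0 for all genes tested, of which 49.8% were lower. None of the 72 members passed the adjusted threshold of 0.05, and edgeR called 0.0% of all genes in each direction, with 957 genes at an unadjusted p under 0.05. DESeq2, run as an alternative, called 0.292% of all genes and no member. Hspa1b averaged 5.57 ± 1.56 CPM in the TAA spleens and 21.0 ± 20.7 CPM in control (SD, n = 3 each), a log2 fold change of -1.91 ± 0.82 (SE; edgeR adjusted p = 0.788). Dnaja1 averaged 145 ± 39.9 CPM in the TAA spleens and 270 ± 133 CPM in control, a log2 fold change of -0.90 ± 0.34. Dnajb1 averaged 91.3 ± 11.3 CPM in the TAA spleens and 143 ± 46.2 CPM in control, a log2 fold change of -0.65 ± 0.23. These 3 were lower and the other members Hspa2 and Dnajc22 higher at an unadjusted edgeR p under 0.05, where 3.15% of all genes were lower and 2.85% higher at that level.

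For Hsph1 the log2 fold change between TAA and control was -0.91, for Hsp90aa1 -0.81, for Dnajb4 -0.30 and for Hspb1 -0.24. No inducible gene had every TAA library below every control, while 7.89% of all genes did. The size of the difference depended on control 2. Without that library the inducible median was -0.25, 6 of the 7 genes were lower, none had an unadjusted p under 0.05, and Hspb1 was higher in TAA, at 0.53. Without control 1, which stood apart on the first component, the median was -0.85.

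The second comparison asked what celecoxib changed in TAA rats. Between TAA+celecoxib and TAA the inducible median was -0.06, against 0 for the other members and 0.01 for all genes, and 5 of the 7 genes had lower fitted values, as had 48.8% of all genes. Hspa1b averaged 1.69 ± 0.736 CPM in TAA+celecoxib spleens and 5.57 ± 1.56 CPM in the TAA spleens, a log2 fold change of -1.71 ± 0.85 (edgeR adjusted p = 0.890). It was the single inducible gene with every TAA+celecoxib library below every TAA library, which was so for 5.03% of all genes. Its fitted value stayed between -1.92 and -1.40 when any 1 library was left out. Hspb1 averaged 23.4 ± 6.82 CPM in TAA+celecoxib spleens and 40.0 ± 12.9 CPM in the TAA spleens, with overlapping groups and a log2 fold change of -0.77 ± 0.49. Hsp90aa1 had the opposite sign, at 44.2 ± 23.6 CPM in TAA+celecoxib spleens and 28.1 ± 20.55 CPM in the TAA spleens, a log2 fold change of 0.66 ± 0.71, which was 0.21 without TAA+celecoxib 1 and 1.38 without TAA 1. Dnaja1 (-0.03), Dnajb1 (0.02), Dnajb4 (-0.06) and Hsph1 (-0.10) had fitted log2 fold changes near 0. No member was called, nor was any gene (0.0%), with 812 genes at an unadjusted p under 0.05. Of the members 2, Dnajc22 and Dnajc5, were lower at that level and 0 higher, against 2.46% and 2.63% of all genes. DESeq2 called 0.119% of genes and no member. Without TAA+celecoxib 1 the inducible median was -0.17.

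The third comparison set the combined treatment against control, and it shares its controls with the first comparison and its TAA+celecoxib libraries with the second. All 7 inducible genes had lower fitted values in TAA+celecoxib, with a median log2 fold change of -0.93, against -0.04 for the other members and 0 for all genes, 49.8% of which were lower. With a term for replicate number, fitted on only the 2 groups, the inducible median was -0.78 and 6 of the 7 genes were lower. Hspa1b averaged 1.69 ± 0.736 CPM in TAA+celecoxib spleens and 21.0 ± 20.7 CPM in control, a log2 fold change of -3.62 ± 0.89 (edgeR adjusted p = 0.911). Every TAA+celecoxib library was below every control for Hspa1b alone among the members, and this held for 4.42% of all genes. DESeq2 called Hspa1b lower (log2 fold change -3.65, adjusted p = 0.00372), the single member among the 0.13% of genes it called. Without control 2 that call was lost, with a DESeq2 log2 fold change of -2.57 and an adjusted p of 0.347.

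Dnaja1 (-0.93), Dnajb1 (-0.63), Hsph1 (-1.02) and Dnajb4 (-0.36) were, with Hspa1b, the 5 members with an unadjusted edgeR p under 0.05, all lower, where 2.07% of all genes were lower and 2.96% higher at that level. Hspb1 had a log2 fold change of -1.01 and Hsp90aa1 of -0.15. None passed adjustment, edgeR called 0.0% of genes in each direction, and 803 genes had an unadjusted p under 0.05. Without control 2 the inducible median was -0.36, with 6 of 7 genes lower. It was -1.20 without control 1 and -0.96 without TAA+celecoxib 1.

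**Figure D3:**
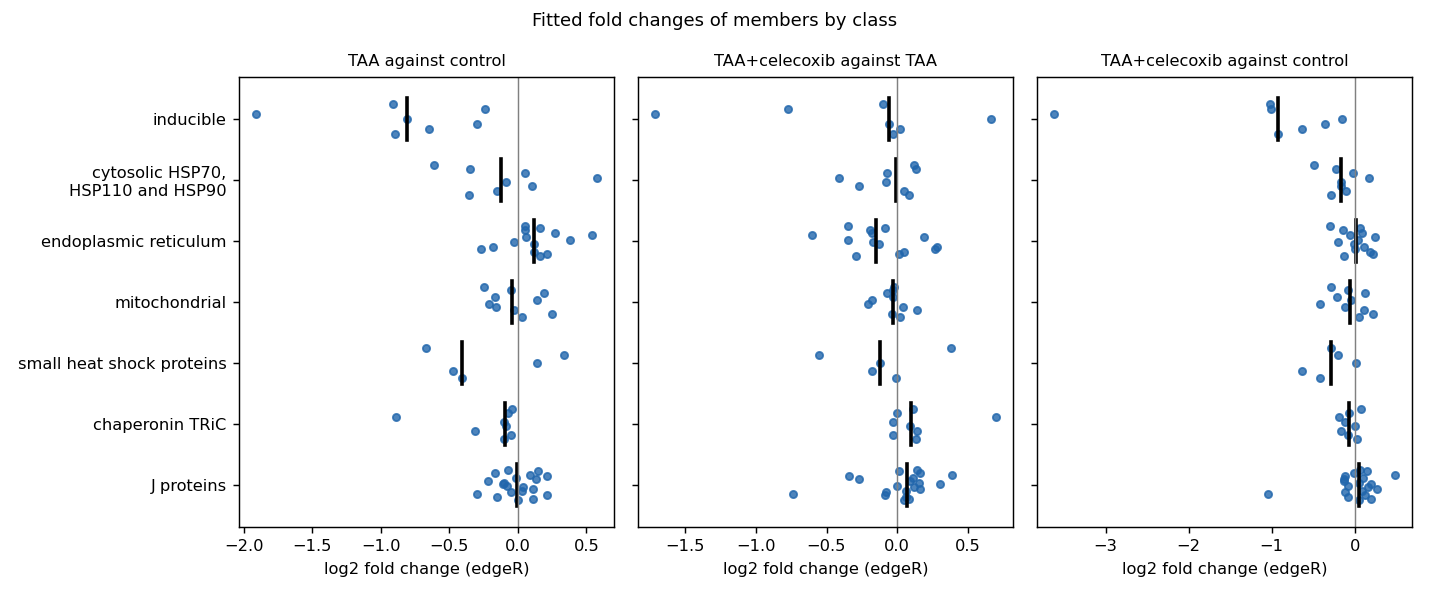
Fitted log2 fold changes (edgeR, horizontal axis) of the 72 members that passed the filter, one point per gene, by class, for TAA against control, TAA+celecoxib against TAA and TAA+celecoxib against control, with the class median as a bar. The inducible medians of -0.81 and -0.93 against control lie left of those of the other classes, and at -0.06 against TAA.

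Among the constitutive cytosolic chaperones, Hspa8 and Hsp90ab1 shared with the inducible genes a highest value in control 2. Hspa8, whose promoter holds 2 heat shock elements, had 875, 675 and 634 CPM in TAA+celecoxib, 589, 799 and 624 CPM in the TAA spleens, and 731, 1501 and 841 CPM in control. Hsp90ab1 had 2302, 1667 and 1791 CPM in TAA+celecoxib, 1706, 2042 and 1701 CPM in the TAA spleens, and 1885, 2987 and 2107 CPM in control. After control 2, both genes were highest in TAA+celecoxib 1, which exceeded control 3. Their fitted log2 fold changes were -0.61 and -0.36 for TAA against control and -0.49 and -0.28 for TAA+celecoxib against control. All groups overlapped, and these fits included control 2, on which the size of the inducible differences depended. Rows described as similar to Hspa8 were also highest in control 2, LOC680121 at 3287 counts and LOC688655 at 755, so reads may be split between Hspa8 and these copies.

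Hspa4, an exchange factor of the HSP110 family, had values within 286 to 350 CPM in all 9 libraries, and its log2 fold change was 0.05 for TAA against control. Hspa2, an HSP70 best known from testis, had 3.80, 5.54 and 5.19 CPM in TAA+celecoxib, 6.04, 7.40 and 5.90 CPM in the TAA spleens, and 5.055, 3.56 and 4.33 CPM in control. Its TAA libraries were above every control and above every TAA+celecoxib library, with log2 fold changes of 0.58 for TAA against control and -0.41 for TAA+celecoxib against TAA (edgeR adjusted p = 0.788 and 0.890).

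In the ER class, 11 of 14 members had higher fitted values in TAA than in control (median 0.12), and 9 of 14 had lower ones in TAA+celecoxib than in TAA (median -0.15). Hspa5 had 562, 579 and 554 CPM in TAA+celecoxib, 719, 779 and 660 CPM in the TAA spleens, and 573, 882 and 630 CPM in control. Every TAA+celecoxib library was below every TAA library (log2 fold change -0.35 ± 0.17, edgeR adjusted p = 0.890), although control 2 was the highest library and the lowest control, 573 CPM, lay among the TAA+celecoxib libraries. Hsp90b1 had overlapping groups, at 980, 942 and 891 CPM in TAA+celecoxib, 1031, 1319 and 861.5 CPM in the TAA spleens, and 1155, 1103 and 841 CPM in control.

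Dnajc3, an HSP70 partner of the ER lumen, had 95.0, 110 and 85.3 CPM in TAA+celecoxib, 121, 105.5 and 101 CPM in the TAA spleens, and 99.4, 94.85 and 78.5 CPM in control. Its TAA libraries were above every control (log2 fold change 0.27 ± 0.14, edgeR adjusted p = 0.788). Dnajc22, a membrane J protein whose Drosophila counterpart acts in endocytosis, had 4.30, 5.54 and 6.37 CPM in TAA+celecoxib, 8.95, 6.78 and 8.93 CPM in the TAA spleens, and 5.67, 5.95 and 5.29 CPM in control. The TAA libraries were above all others, with log2 fold changes of 0.54 ± 0.22 for TAA against control and -0.60 ± 0.22 for TAA+celecoxib against TAA (edgeR adjusted p = 0.788 and 0.890). Dnajb12, of the ER membrane, had log2 fold changes of 0.21 for TAA against control, 0.01 for TAA+celecoxib against TAA and 0.22 for TAA+celecoxib against control.

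Mitochondrial members had fitted medians near 0, -0.04 for TAA against control, -0.03 for TAA+celecoxib against TAA and -0.06 for TAA+celecoxib against control. Hspa9, the mitochondrial HSP70, had 143, 149 and 146 CPM in TAA+celecoxib, 154, 153 and 152 CPM in the TAA spleens, and 119, 144 and 140 CPM in control. Its TAA libraries lay close together and above all others, and its log2 fold changes were 0.19 for TAA against control and -0.07 for TAA+celecoxib against TAA. Hspd1 had 271, 244 and 222 CPM in TAA+celecoxib, 255, 261 and 237 CPM in the TAA spleens, and 240, 303 and 237 CPM in control. Hspe1 had 65.45, 49.0 and 49.9 CPM in TAA+celecoxib, 65.9, 54.0 and 47.1 CPM in the TAA spleens, and 66.5, 81.6 and 50.8 CPM in control. This pair, with a shared heat shock element, was highest in control 2.

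Dnajc11, of the mitochondrial inner membrane organising complex, had every TAA library above every control, at 53.0, 42.9 and 44.9 CPM in the TAA spleens and 42.8, 38.8 and 36.5 CPM in control (log2 fold change 0.25 ± 0.14). Dnajc30 and Dnajc15, further mitochondrial J proteins, had log2 fold changes of -0.18 and 0.14 for TAA+celecoxib against TAA, with overlapping groups.

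The small heat shock proteins other than Hspb1 were low, and 5 of 6 passed the filter. Hspb6, best known from muscle, had 10.3 to 11.4 CPM in TAA+celecoxib, 10.2 to 13.3 CPM in the TAA spleens and 10.1 to 11.3 CPM in control. Hspb11, a component of ciliary transport, had 3.04, 2.455 and 3.72 CPM in TAA+celecoxib, 3.77, 2.40 and 3.13 CPM in the TAA spleens, and 2.84, 5.28 and 4.27 CPM in control, so it too was highest in control 2. Hspb2, Hspb7 and Hspb8 ranged over 2.67 to 7.34, 1.18 to 5.38 and 2.74 to 11.3 CPM, with no group apart from another. Their fitted values for TAA against control were -0.47, 0.34 and -0.67 on the log2 scale, with SEs of 0.37, 0.59 and 0.55.

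All 8 TRiC subunits covered by the rule had lower fitted values in TAA than in control (median -0.09), and 6 of 8 had higher ones in TAA+celecoxib than in TAA (median 0.10). Cct5 had 448, 394 and 375 CPM in TAA+celecoxib, 380, 432 and 330 CPM in the TAA spleens, and 393, 434 and 392 CPM in control. Cct4, whose promoter holds a 3-unit heat shock element, had 350, 256 and 250 CPM in TAA+celecoxib, 254, 288 and 236 CPM in the TAA spleens, and 349, 334 and 279 CPM in control. Its highest value was in TAA+celecoxib 1, which held the highest value of 5 of the 8 subunits, and TAA 3 held the lowest of 6. Cct2 and Cct6a had log2 fold changes of -0.10 each for TAA against control, and the testis paralogue Cct6b, at 1.015 CPM or less, had -0.89 ± 0.55. No TRiC subunit had groups that did not overlap.

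The 20 remaining J proteins that passed the filter split evenly for TAA against control, 10 higher and 10 lower (median 0). Dnaja2 had 151 to 166 CPM in TAA+celecoxib, 149 to 162 CPM in the TAA spleens and 149 to 158 CPM in control, the narrowest relative range among the 72 members tested. Dnajc8, tied to splicing, and Dnajc7, which binds both HSP70 and HSP90, had log2 fold changes of 0.15 and -0.17 for TAA against control.

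Dnajc5, the cysteine string protein of secretory vesicles, had 36.0, 39.2 and 42.2 CPM in TAA+celecoxib, 50.9, 47.8 and 49.97 CPM in the TAA spleens, and 36.5, 45.1 and 46.4 CPM in control. Its TAA libraries were above all others, with a log2 fold change of -0.34 ± 0.12 for TAA+celecoxib against TAA (edgeR adjusted p = 0.890). Dnajc2, a J protein of the ribosome, went the other way, at 83.0, 64.1 and 71.95 CPM in TAA+celecoxib, 56.8, 62.8 and 58.1 CPM in the TAA spleens, and 71.5, 67.0 and 53.0 CPM in control. Every TAA+celecoxib library exceeded every TAA library for Dnajc2 (log2 fold change 0.30 ± 0.14). Dnajb3 and Dnajc6, at or below 0.863 and 3.165 CPM, had log2 fold changes of -1.04 ± 0.52 and 0.49 ± 0.35 for TAA+celecoxib against control.

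Counted over the 65 other members, groups did not overlap for 6 in TAA against control, all higher in TAA (Hspa2, Dnajc3, Dnajc22, Hspa9, Dnajc11 and Dnajc5), where 6.94% of all genes were higher in this way. For TAA+celecoxib against TAA, 5 were lower (Hspa2, Dnajc22, Hspa5, Hspa9 and Dnajc5) and 2 higher (Dnajc1, an ER membrane J protein, and Dnajc2), where 5.03% of all genes were lower and 5.87% higher. For TAA+celecoxib against control there were 0 in either direction, where 5.27% of all genes were higher and 4.42% lower. The first 2 of these comparisons share the 3 TAA libraries. As shares of the 65 other members, 9.23% were higher in the first comparison, and 7.69% lower and 3.08% higher in the second.

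The sums of macrophage and T cell markers also set the TAA libraries apart. The 5 macrophage genes summed to 1236 to 2523 CPM in TAA+celecoxib, 2859 to 4638 CPM in the TAA spleens and 1564 to 2783 CPM in control, with Marco at 0 in at least 1 library. The 4 T cell genes summed to 418 to 465 CPM in TAA+celecoxib, 322 to 415 CPM in the TAA spleens and 434 to 458 CPM in control. So for Hspa2, Dnajc22, Hspa9 and Dnajc5, whose TAA libraries were above all others, the macrophage sum was above and the T cell sum below all others in the same 3 libraries. Single markers did not all follow these sums. Of the macrophage genes only Siglec1 had every TAA library above all others, and C1qa was highest in control 2 (1080 CPM). Cd3e and Cd8a had every TAA library below all others. Cd3d was lowest in TAA+celecoxib 2, and Cd4 averaged 245 CPM in TAA, 207 CPM in TAA+celecoxib and 214 CPM in control. The 5 neutrophil genes summed to 297 to 663 CPM in TAA+celecoxib, 400 to 1976 CPM in the TAA spleens and 78.3 to 307 CPM in control, and 4 cell division genes to 293 to 1142 CPM in TAA+celecoxib, 406 to 779 CPM in the TAA spleens and 196 to 398 CPM in control. The part of these cell types in the members' values was not tested.

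**Figure D4:**
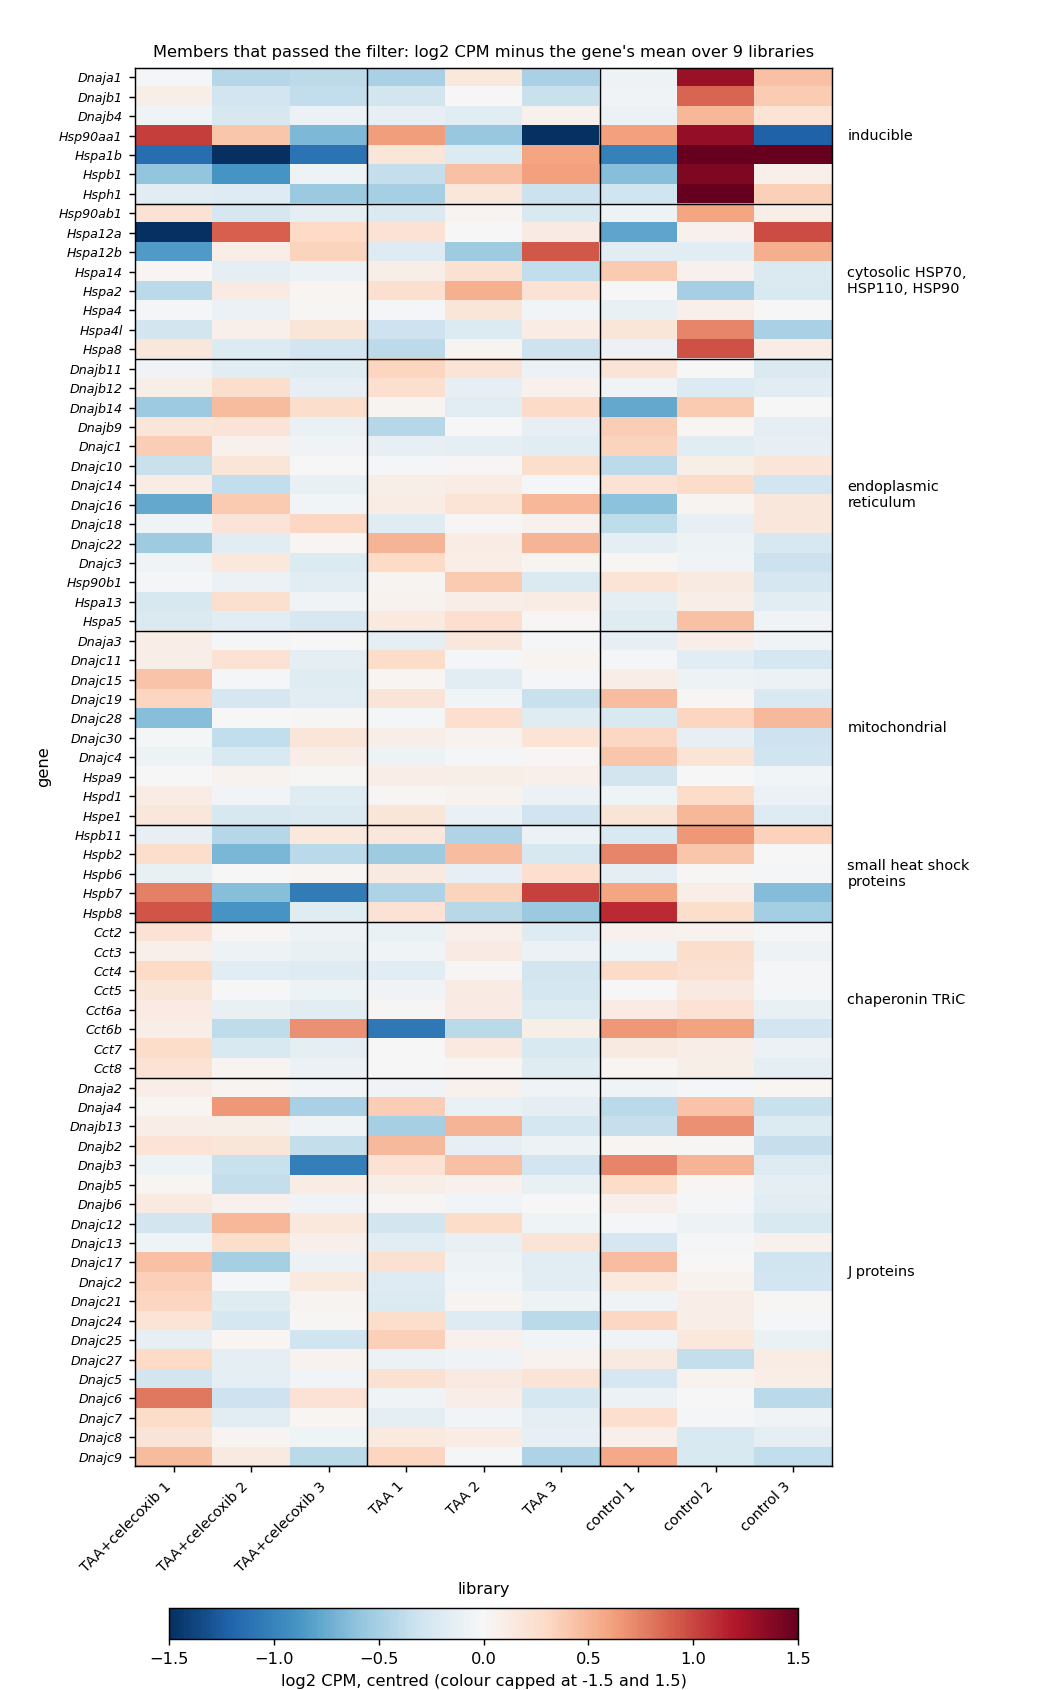
Log2 CPM of the 72 members that passed the filter, minus each gene's mean over the 9 libraries (colour, capped at -1.5 and 1.5), with genes in rows by class and libraries in columns by group. The column of control 2 stands out in the inducible rows and in Hspa8 and Hsp90ab1, and most other rows stay pale.

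Partners of HSP70 and HSP90 that are not members were read from a list of 39 genes, of which 38 passed the filter. For TAA against control 26 of 38 had lower fitted values (median -0.11) and 0 were called. Bag3, the exchange factor that joins HSP70 to small heat shock proteins, had 34.7, 23.5 and 34.2 CPM in TAA+celecoxib, 27.7, 33.4 and 33.0 CPM in the TAA spleens, and 36.0, 43.4 and 42.0 CPM in control. All 6 treated libraries were below all 3 controls for Bag3, with log2 fold changes of -0.37 ± 0.17 for TAA against control and -0.39 ± 0.17 for TAA+celecoxib against control (edgeR adjusted p = 0.788 and 0.911).

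Chordc1, an HSP90 co-chaperone with 3 overlapping heat shock elements, had 86.9, 54.5 and 61.6 CPM in TAA+celecoxib, 45.6, 70 and 58.2 CPM in the TAA spleens, and 81.5, 133 and 80.5 CPM in control. Ahsa2, related to the activator of the HSP90 ATPase, had 23.7, 16.4 and 17.6 CPM in TAA+celecoxib, 15.3, 18.6 and 17.3 CPM in the TAA spleens, and 24.4, 40.0 and 23.1 CPM in control. For both genes every TAA library was below every control, with log2 fold changes of -0.76 ± 0.26 and -0.77 ± 0.24 (edgeR adjusted p = 0.788 for each). Without control 2 both log2 fold changes were -0.48, with SEs of 0.24 and 0.20 (edgeR adjusted p = 0.847 for each). Stip1, which passes clients from HSP70 to HSP90, had 136, 117 and 124 CPM in TAA+celecoxib, 127, 161 and 122 CPM in the TAA spleens, and 143, 273 and 149.5 CPM in control. Its log2 fold change of -0.47 for TAA against control was -0.10 without control 2.

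Among the 38 partners, groups did not overlap for 5 lower (13.2%) and 1 higher (2.63%) in TAA against control, where 7.89% of all genes were lower and 6.94% higher in this way. For TAA+celecoxib against TAA 3 were lower (7.89%), where 5.03% of all genes were. For TAA+celecoxib against control 7 were lower (18.4%), where 4.42% of all genes were, and none was higher in these 2 comparisons, where 5.87% and 5.27% of all genes were. Stub1, the ubiquitin ligase CHIP, averaged 34.7 ± 3.46 CPM in TAA+celecoxib, 42.8 ± 4.99 CPM in the TAA spleens and 44.2 ± 1.90 CPM in control. Hyou1, an HSP110 relative of the ER, averaged 178 ± 13.4 CPM in TAA+celecoxib, 232 ± 25.2 CPM in the TAA spleens and 209 ± 22.3 CPM in control, a log2 fold change of -0.38 ± 0.13 for TAA+celecoxib against TAA (edgeR adjusted p = 0.890). Hsf1 itself, the factor that drives the inducible genes, averaged 38.05 ± 2.70 CPM in TAA+celecoxib, 38.1 ± 1.78 CPM in the TAA spleens and 40.5 ± 3.22 CPM in control, a log2 fold change of -0.09 ± 0.11 for TAA against control.

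Genes outside the members were ranked by how closely their centred log2 CPM over the 9 libraries followed the mean of the 7 inducible genes, by root mean square difference. The 10 closest were Fkbp4 (0.233), Bst2, Stip1 (0.246), Serpinh1 (0.272), Ctnnd2, Col4a6, Ppl, an unnamed gene model, AC096317.3 and Ahsa2 (0.295). Of these 10, 4 are partners on the list: Fkbp4, an HSP90-bound prolyl isomerase, Stip1, Serpinh1, the collagen chaperone HSP47 of the ER, and Ahsa2. Among the 15954 genes tested, 38 are on that list. It was chosen with earlier results of these data known, so the count of 4 is a description only. Chordc1 ranked 21, Ahsa1 35, St13 51 and Bag3 106 of the genes that passed the filter and are not members, while Hsf1 ranked 2254. Other partners ranked much lower, among them Trap1 at 8317, Bag2 at 11676 and the HSP90 co-chaperone Fkbp5 at 13790. Fkbp5 was lowest in control 2, at 90.9 CPM, with a log2 fold change of 0.87 ± 0.36 for TAA against control (edgeR adjusted p = 0.788). Control 2 held the highest value of 14 of the 38 partners (36.8%), where it did so for 7.1% of all genes tested. Among the members Dnaja1 (0.192) and Hsph1 (0.197), which are part of that mean, were closest, and Hspa8 (0.263), which is not, came before 4 of the 7 inducible genes. Hspa1b (1.125) was the farthest of the 72 members, though also part of the mean, and Hsp90aa1 (0.947) was the farthest but for Hspa1b and Hspa12a. The measure counts the size of the deviations as well as their order. Hspa1b had the largest deviations of the members, a root mean square of 1.594 for its own profile. Its highest library was control 2 and its next highest control 3. This likeness is a description over 9 libraries, in which control 2 had the largest deviation of the inducible mean (1.44 on the log2 scale).

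Serpinh1, which has a 3-unit heat shock element, had 122, 100 and 131 CPM in TAA+celecoxib, 157, 193 and 135 CPM in the TAA spleens, and 135, 287 and 147 CPM in control. Every TAA+celecoxib library was below every TAA library and every control, with log2 fold changes of -0.46 ± 0.28 for TAA+celecoxib against TAA and -0.69 ± 0.28 for TAA+celecoxib against control (edgeR adjusted p = 0.890 and 0.911). Without control 2 the value against control was -0.26 ± 0.18. Fkbp4 had 124, 105 and 114.5 CPM in TAA+celecoxib, 124, 154.5 and 111 CPM in the TAA spleens, and 132, 269 and 132 CPM in control. Control 1 and control 3 were alike for Fkbp4, and control 2 was 1.74 times the next highest library.

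**Figure D5:**
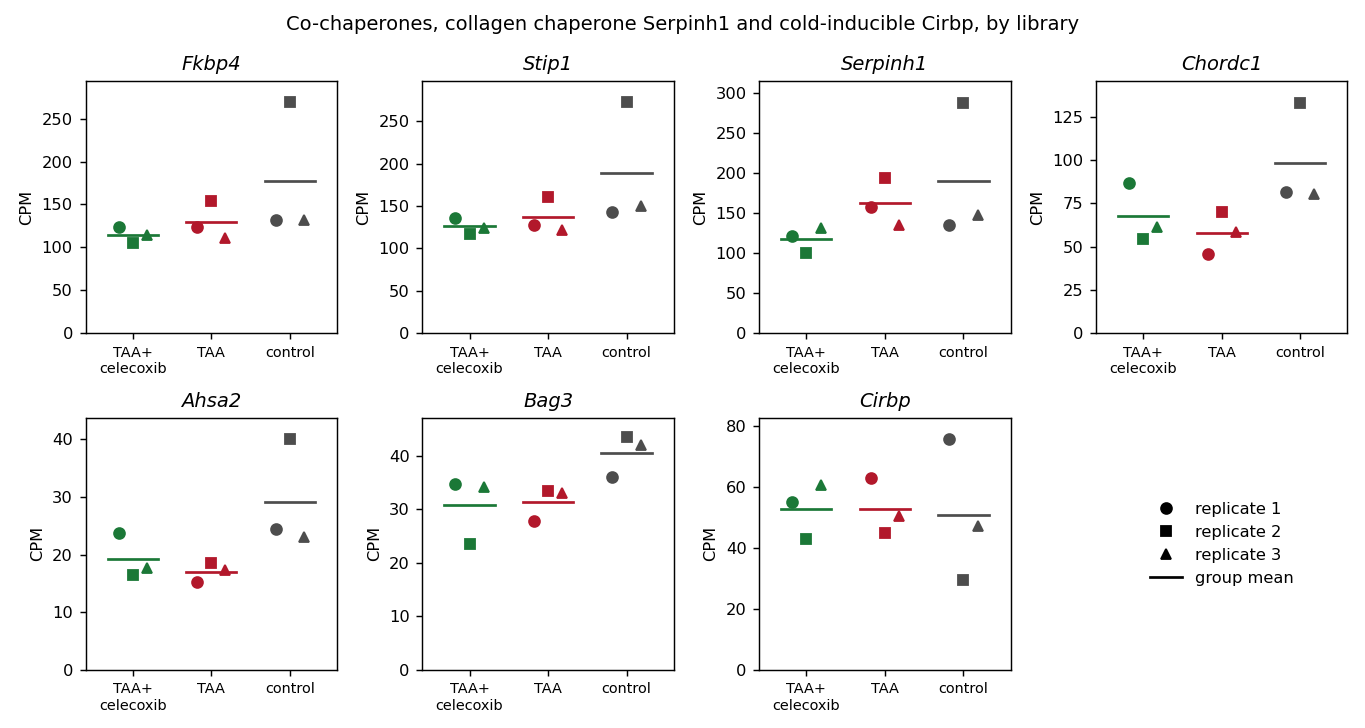
CPM of 5 partners of HSP70 and HSP90 and of the collagen chaperone Serpinh1 and the cold-inducible Cirbp in each library (points) with group means (lines), for TAA+celecoxib, TAA and control. Control 2 is the highest library for the 6 chaperone partners shown and the lowest for Cirbp (29.4 CPM), and Bag3 has all 3 controls above the 6 treated libraries.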

How the data were processed

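RNA-seq of 9 rat spleen libraries was analysed from the authors' deposited tables. TRIzol extraction and standard Illumina library kits were used, per the labels' protocols. Deposited by the authors were raw read counts and FPKM values, each FPKM being the count divided by gene length and a constant of the library that was 0.955 to 1.05 times its total. HISAT2 2.0.5 and mRatBN7.2 appear in the submitters' processing notes, but chromosome 1 coordinates run to 282724300 and the build of the files is unresolved. How reads were counted, and on which strand, is not given in the sources used here, so overlapping, antisense and near-identical genes could share reads.

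Tests used edgeR 4.0.16 (R 4.3.3) on the counts: TMM, filterByExpr (minimum count 10, total 15), one quasi-likelihood model over all 9 libraries with group as its term, 2-sided, Benjamini-Hochberg adjustment over 15954 genes and a threshold of 0.05. The common coefficient of biological variation was 0.311. CPM values use TMM library sizes. FPKM served for levels between genes. An exact permutation of 3 against 3 libraries cannot go below p = 0.1. Alternatives were DESeq2 1.42.0, limma-voom 3.58.1, other scaling, no filter, only the groups compared, a replicate block and leaving out each library. The labels do not say what the replicate numbers link. By their deviations from group means over all genes, same-numbered TAA+celecoxib and control libraries correlated at 0.178 to 0.475, all 3 above 0.1. Differently numbered ones correlated at -0.402 to 0.133. The value of 0.475 was between TAA+celecoxib 1 and control 1, which stood apart on the first principal component. The numbers were therefore treated as a possible pairing in that comparison, which these correlations do not establish. In the comparisons with TAA not all 3 were above 0.1. On simulated data edgeR recovered 72.5%, 61.0% and 67.0% of 4-fold changes in TAA against control, TAA+celecoxib against TAA and TAA+celecoxib against control. False calls numbered 9, 6 and 10. Genes were simulated independently, without differences shared by many genes of a library, so recovery in the real libraries may differ.

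Named genes were every inducible member; of each other class the 3 highest by FPKM and the 2 with the smallest p in each comparison; of the partner list the 2 with the smallest p in each comparison plus Bag3, Chordc1, Stip1 and Hsf1; and the 10 genes closest to the inducible profile. Dnajc1 and the partner Fkbp5 were named after their values were seen. Members and lists were chosen with earlier results of these data known.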

Additional observations from a re-analysis of the deposited data

How the results depend on the processing

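The direction of the inducible medians against control held under every setting run, and their size depended on control 2. Leaving out 1 library at a time, the inducible median ranged from -1 to -0.25 for TAA against control, from -0.17 to 0.12 for TAA+celecoxib against TAA and from -1.20 to -0.36 for TAA+celecoxib against control, the values nearest 0 against control being those without control 2. DESeq2 called 50, 22 and 24 genes in these 3 comparisons where edgeR called 0, and the cause was not tested; 1 of them, Hspa1b in TAA+celecoxib against control, is a member (log2 fold change -3.65; adjusted p over all alternatives 0.00372 to 0.9999). A DESeq2 fit without control 2, chosen after seeing the data, called 45, 17 and 17 genes and 0 members. Over all fits that left out 1 library the counts of called genes ranged from 0 to 45, from 0 to 17 and from 0 to 17. edgeR on only the groups compared called 1 gene in TAA+celecoxib against control. Signs turned for fitted values near 0: Hspb1 in TAA against control (-0.59 to 0.53 with 1 library left out), Dnaja1 (-0.17 to 0.22), Dnajb1 (-0.13 to 0.13), Dnajb4 (-0.10 to 0.02) and Hsph1 (-0.26 to 0.12) in TAA+celecoxib against TAA, and Hsp90aa1 in TAA+celecoxib against control (-0.60 to 0.44, 0 with limma-voom and 0.01 with the block over 6 libraries). With a replicate block over all 9 libraries edgeR called 0 genes in each comparison, the inducible medians were -0.78, -0.05 and -0.82, and Dnaja1 in TAA+celecoxib against TAA was 0.04. A replicate block on only the 6 libraries compared, chosen after seeing the correlations of same-numbered libraries, gave 0 called genes in each comparison. Its inducible medians were -0.74, -0.06 and -0.78. In TAA+celecoxib against control, where the numbers were treated as a possible pairing, Hspa1b was -2.94 (edgeR adjusted p = 0.497). There 6 of the 7 inducible genes were lower, and the 1 gene called without the block was not called. In the other comparisons same-numbered libraries correlated at -0.0214 to 0.24 and -0.213 to 0.12. Depth limits Hspa1b most, at 12 to 38 counts in TAA+celecoxib libraries.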
